A study of Mus musculus with 8 samples.

Results

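Septins are GTP-binding proteins that polymerise end to end into filaments, rings and gauzes beneath the plasma membrane, and they are counted as a component of the cytoskeleton beside actin, microtubules and intermediate filaments. Mammalian septins fall into 4 sequence groups, named after SEPT2, SEPT3, SEPT6 and SEPT7. A member of the SEPT2, SEPT6 and SEPT7 groups joins into a short rod, and longer rods also take in SEPT9, of the SEPT3 group. Septin filaments are known for their part in cytokinesis, cortical stiffness and secretion, and platelets, the fragments that megakaryocytes release, contain several septins.

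The septin family was taken as the 10 genes Sept1, Sept2, Sept4, Sept5, Sept6, Sept7, Sept8, Sept9, Sept10 and Sept11, found by gene identifier among the 27679 genes of the count table. All 10 were present, and 9 of them had enough counts to be tested. RNA-seq had been done on megakaryocytes, the large polyploid cells of the marrow, from wild-type C57BL/6 mice. After magnetic depletion of lineage-positive marrow cells, the cultures ran for 3 days, and mature cells were then enriched by size on a BSA gradient of 2 to 4%. The hydrogel group (4 libraries) was grown in methylcellulose at 2%, a soft gel whose Young modulus is 30 to 60 Pa, and the liquid group (4 libraries) in liquid medium, with genotype, tissue and cell type otherwise labelled alike. The submitters call the 4 cultures of each group independent biological replicates. The enrichment by size means that cells of other types can remain in either group.

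The septin transcripts of the hydrogel libraries differed in make-up from those of the liquid libraries, which also differed in cell type markers: 15 of 19 tested macrophage markers were higher and 6 of 10 megakaryocyte markers lower in hydrogel. Sept9 rose 1.86-fold and Sept10, at a low level, 4.65-fold, whereas Sept6 fell 2.11-fold, Sept5 1.45-fold and Sept7 1.15-fold (edgeR quasi-likelihood test, adjusted p from 4.74e-05 for Sept6 to 0.0427 for Sept7). The Sept6 and Sept9 calls held in each of the 19 alternative analyses run, while those of Sept5, Sept7 and Sept10 did not, as described with each gene. Sept1, Sept2, Sept8 and Sept11 were not called. Among all 13845 genes tested, 15.1% rose and 14.1% fell, together 29.3%, so that 2 of 9 septins higher and 3 of 9 lower should be read against a background in which calls were frequent. The groups did not overlap for 5 of the 9 septins, 2 with hydrogel above and 3 with it below, against 28.4% of all tested genes (14.6% above and 13.8% below). Sept10, counted among those above, would not have passed the low-count filter on its liquid libraries alone. Sept4, lower in hydrogel without overlap, did not pass that filter and is not among the 9. The median log2 change was −0.20 over the 9 septins and −0.01 over all tested genes.

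**Figure D1:**
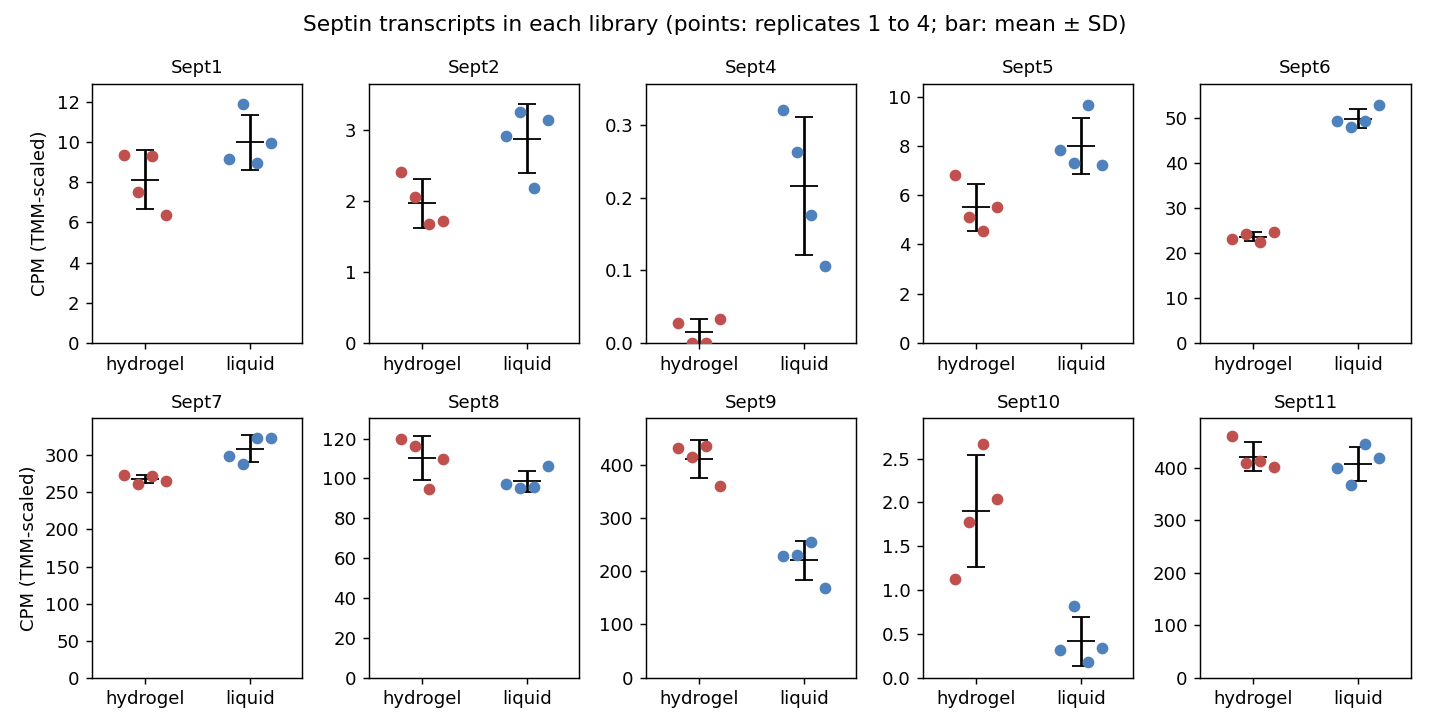
Each panel shows a septin gene, with its level as CPM (TMM-scaled read counts relative to library size, linear axis from 0) in the 4 hydrogel libraries on the left and the 4 liquid libraries on the right. Points are replicates 1 to 4 from left to right and bars are mean ± SD. Sept6 and Sept9 show the widest separation relative to their spread, at 23.6 against 49.8 CPM and 411 against 220 CPM, while the points of Sept11 overlap.

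The family members share the GTP-binding loop (P-loop) and are related over their whole coding sequences, but rarely share long stretches of identical bases. This bears on whether reads can be assigned to the right gene. The stretch of 8 codons that encodes the P-loop is shown for each member, 5′ to 3′ on the coding strand, from the longest coding transcript in GENCODE M21 (GRCm38). Capitals mark the 4 codons at the fixed positions of the pattern used to find the loop, for the first glycine and the closing glycine, lysine and serine. These residues are the same in every member, while the bases of their codons vary. Codon 4, in lower case, also encodes glycine in every member.
Sept1: GGGgagtcaggcctgGGGAAATCC
Sept2: GGTgaatctggtctaGGAAAATCA
Sept4: GGAgaatctggtctgGGTAAATCC
Sept5: GGTgagtccggcctgGGGAAGTCC
Sept6: GGGgagacaggtttgGGCAAGTCC
Sept8: GGCgaaactgggattGGCAAGTCC
Sept10: GGGgagactggaattGGAAAATCA
Sept11: GGTgagacaggtattGGCAAATCC
Sept7: GGTgaatctggactgGGAAAGTCG
Sept9: GGGcagagcggcctcGGGAAGTCC

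Even in this conserved loop every pair of members differed at 3 or more of the 24 bases. Sept5 and Sept1 were closest, with 3 bases different, and Sept9 and Sept2 were farthest apart, with 11. Sept9 differed from each other member at 5 or more bases. Over whole coding sequences, identity ranged from 64.4 to 75.7% (median 69.9%) for the 12 pairs within a sequence group and from 58.4 to 70.1% (median 63.1%) for the 33 pairs of different groups. At most 0.0723% of the distinct stretches of 50 bases in any member's transcripts recurred in another septin, so reads of that length rarely fit more than 1 septin.

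Overlaps with other annotated genes were larger for Sept5 and Sept2. In GENCODE M21, only 638 of the 3915 exon bases of Sept5 belong to no other gene on the same strand. The remainder is shared with Gp1bb, which encodes the beta subunit of the platelet receptor for von Willebrand factor and lies beside Sept5, and with a predicted gene, Gm49601. For Sept2, 3335 of 7979 exon bases are shared with a further identifier of the same symbol, which was not found in the count table. Of the 2087 exon bases of Gp1bb, only 149 belong to no other gene on the same strand. How reads in shared exons were counted is not given in the sources used here. The levels of Sept5, Sept2 and Gp1bb are therefore uncertain and may be understated. With genes on the opposite strand, Sept6 shares 308 of its exon bases (Gm15008, an antisense gene), Sept7 shares 245 (Gm48272) and Sept1 shares 70 (Zfp553). Sept4 shares 45 exon bases with Gm11492 on the same strand. The 10 genes are spread over 8 chromosomes, with Sept4, Sept8 and Sept9 on chromosome 11 and Sept6 on chromosome X. Coordinates are not printed, because the annotation used here and the counted reads are on different genome builds.

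The hydrogel libraries held 27012172 to 37059314 counts each and the liquid libraries 28825468 to 49281611. The 10 megakaryocyte markers were abundant in every library, summing to 24945 to 36421 CPM in hydrogel and 30382 to 49726 CPM in liquid, with 6 of them lower in hydrogel by the test. Of 20 monocyte and macrophage markers, 19 were tested, of which 15 were higher in hydrogel and 0 lower, and their sums were 4159 to 9020 CPM in hydrogel and 1123 to 2422 CPM in liquid; Cd163 had 1 count in hydrogel and 5 in liquid. Hydrogel 1 and liquid 2 stood apart from their groups. They were the closest pair across the groups in macrophage markers, at 4159 and 2422 CPM. The same held on the first principal component, at 14.1 and −13.6, where the other libraries lay at 31.8 to 36.4 in hydrogel and −36.9 to −31.2 in liquid. The sums of dendritic cell markers were 6.94 to 11.1 CPM in hydrogel and 24.8 to 40.7 CPM in liquid, with 4 of the 4 tested lower. Mast cell and basophil markers summed to 49.4 to 154 CPM in hydrogel and 87.7 to 481 CPM in liquid (4 of 5 tested lower), and neutrophil markers to 263 to 644 CPM in hydrogel and 380 to 1680 CPM in liquid (1 of 7 lower). Erythroid markers summed to 84.7 to 158 CPM in hydrogel and 116 to 182 CPM in liquid (2 of 5 lower), and dividing cell markers to 1003 to 1262 CPM in hydrogel and 804 to 1148 CPM in liquid (2 of 8 higher). Lymphocyte markers summed to 2.36 to 4.27 CPM in hydrogel and 2.97 to 7.63 CPM in liquid, with no count of Cd3d, Ms4a1 or Ncr1 in any hydrogel library. These counts of called markers should be read against all tested genes, of which 15.1% were called higher and 14.1% lower. The 1 of 7 neutrophil markers called lower is near that share. In such bulk libraries a smaller number of cells of a type and less RNA per cell cannot be told apart.

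Sept9, the only SEPT3 group member of the list, encodes the septin that extends the rods and binds microtubules and actin bundles. Its level was 432, 415, 435 and 360 CPM in hydrogel 1 to 4, against 229, 231, 254 and 168 CPM in liquid 1 to 4. Every hydrogel library lay above every liquid library, and the lowest of the liquid values was that of liquid 4. The log2 fold change, hydrogel over liquid, was 0.90 ± 0.12 (SE; edgeR adjusted p = 0.000906), and it was 0.78 without liquid 4. With the macrophage score of each library as a covariate the log2 change was 1.05 (adjusted p = 0.0334). The part of the macrophage markers in this difference was not tested beyond that fit, in which culture explains 82.1% of the variance of the score.

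Sept3, a relative of Sept9 best known from neurons, had 2.05, 1.59, 1.39 and 0.744 CPM in hydrogel against 0.931, 1.08, 1.25 and 0.872 CPM in liquid. These ranges overlap and the gene was not called (log2 change 0.48 ± 0.31, adjusted p = 0.276; with the macrophage covariate 1.15, 0.390). It was not counted in the family, and Sept12 and Sept14 were not found in the count table by their identifiers.

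The SEPT6 group holds Sept6, Sept8, Sept10 and Sept11, whose proteins bind GTP but lack a residue needed to hydrolyse it and can replace one another within the rod. Its members moved in different directions. Sept6, the founding member, stood at 23.2, 24.2, 22.3 and 24.7 CPM in hydrogel 1 to 4, against 49.4, 47.9, 49.2 and 52.8 CPM in liquid 1 to 4. The groups were far apart relative to the spread within each, and hydrogel 1 and liquid 2 lay with their own groups. The log2 fold change was −1.08 ± 0.07 (adjusted p = 4.74e-05). It lay between −1.13 and −1.01 in all 19 alternative analyses, and under the macrophage covariate it was −1.07 (adjusted p = 0.00428). The dendritic cell, mast cell and megakaryocyte markers were also lower in hydrogel by the counts given above, and their part in the fall of Sept6 was not tested.

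Sept10 was scarce, with 41, 57, 73 and 63 counts in hydrogel 1 to 4 against 10, 25, 8 and 13 counts in liquid 1 to 4. In CPM these were 1.12, 1.78, 2.66 and 2.04 in hydrogel against 0.321, 0.822, 0.176 and 0.344 in liquid. The groups did not overlap, but hydrogel 1 was the lowest hydrogel library and liquid 2 the highest liquid library, as they were for the macrophage markers. Liquid 1 and liquid 3 fell short of the low-count filter, so Sept10 was tested only because of its hydrogel libraries, where it is high. Its lack of overlap and its test are to be read with that selection. The log2 fold change was 2.22 ± 0.45 (adjusted p = 0.00539), and it was 2.76 without liquid 2 and 2.97 when hydrogel 1 was left out too. Adding the macrophage score to the fit as a covariate gave a log2 change of −0.05 (adjusted p = 0.978), so the sign turned and the call was lost. Since culture explains 82.1% of the variance of that score, macrophage content and culture cannot be told apart by this fit.

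Sept8, whose protein binds synaptic vesicle proteins in neurons, and Sept11, which co-assembles with SEPT7, were both abundant and neither passed the test. Sept8 had 120, 116, 94.7 and 110 CPM in hydrogel against 96.9, 94.9, 95.8 and 106 CPM in liquid, with overlapping ranges and a log2 change of 0.16 ± 0.08 (adjusted p = 0.165). Sept11 had 462, 409, 413 and 401 CPM in hydrogel against 400, 367, 446 and 418 CPM in liquid. Its log2 change was 0.05 ± 0.08 (adjusted p = 0.706), and the sign was negative under upper-quartile scaling (−0.0047), without liquid 2 (−0.00074) and when hydrogel 1 was left out too (−0.03).

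**Figure D2:**
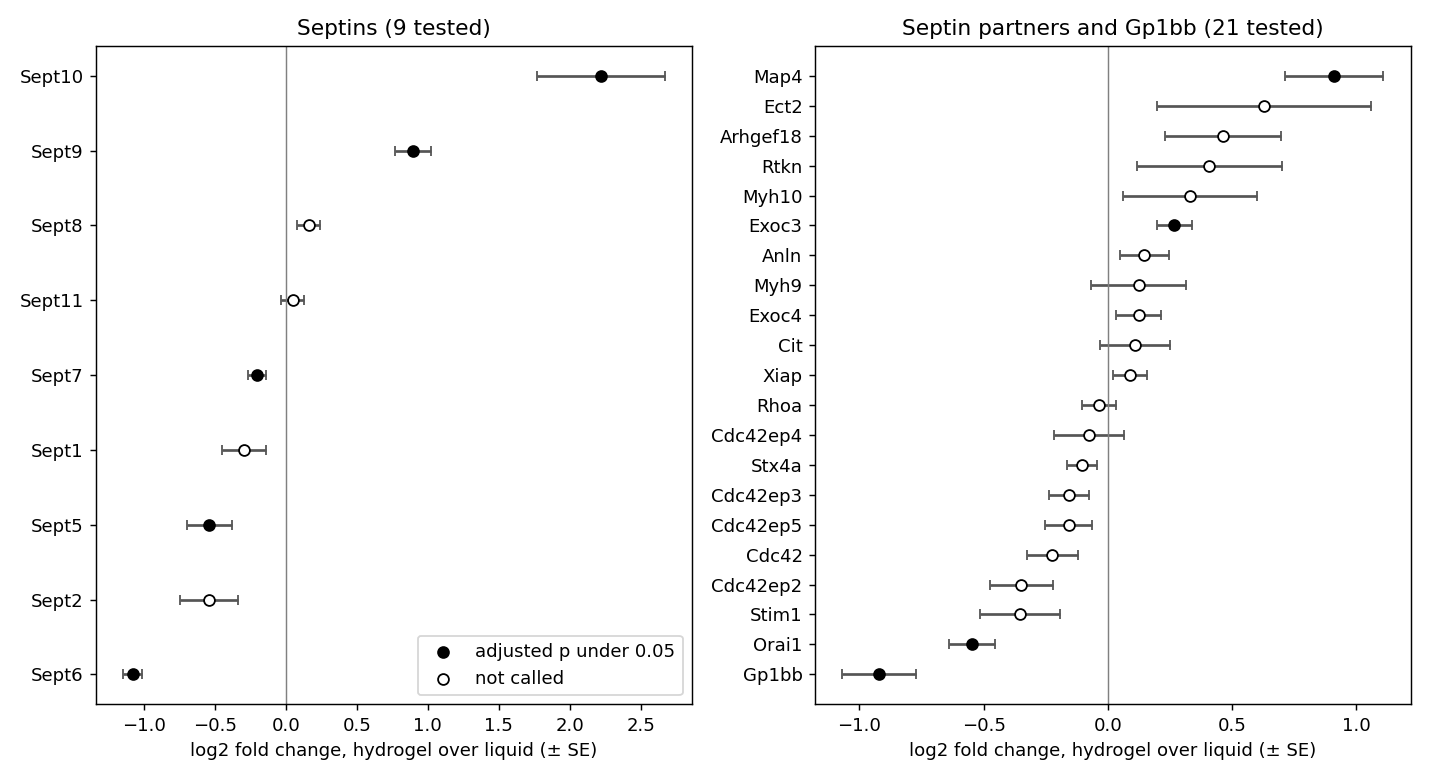
Dots show the log2 fold change, hydrogel over liquid, of the 9 tested septins (left panel) and of 20 tested septin partners with Gp1bb (right panel), with bars for ± 1 SE. Filled dots mark an adjusted p under 0.05 in edgeR's test; the septins run from −1.08 for Sept6 to 2.22 for Sept10, with the widest bar at Sept10.

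**Figure D3:**
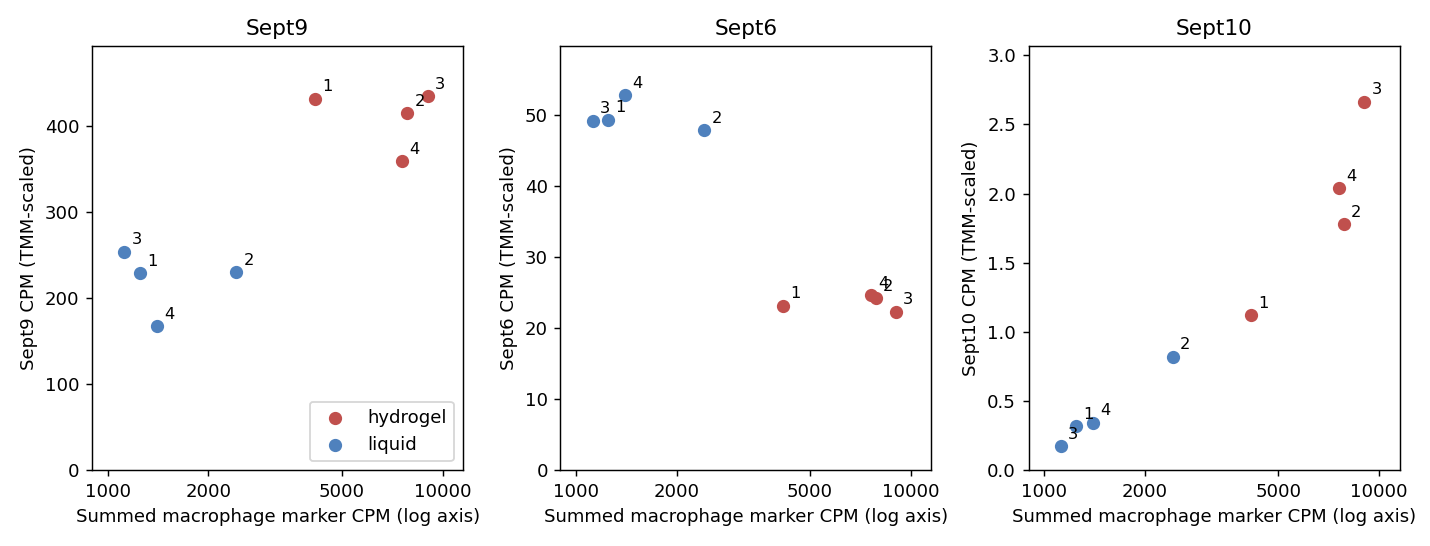
Each point is a library, numbered by replicate, with the summed CPM of 20 macrophage markers on a log axis and the CPM of Sept9, Sept6 or Sept10 on a linear axis. Within each group Sept10 is lowest or highest where the markers are, 0.176 CPM being the value of liquid 3 and 2.66 CPM that of hydrogel 3. Hydrogel 2 and hydrogel 4 lie in opposite order for Sept10 and the markers. The 4 hydrogel values of Sept6 stay between 22.3 and 24.7 CPM. The figure tests no cause.

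Sept7 is alone in its sequence group and is a core partner in the rods. Its level was 273, 261, 273 and 265 CPM in hydrogel 1 to 4, against 299, 288, 324 and 324 CPM in liquid 1 to 4. The groups did not overlap, but they lay close together. The log2 fold change was −0.20 ± 0.07 (adjusted p = 0.0427). The call was lost in 12 of the 19 alternatives: in 7 of the 8 omissions of a library, all but that of liquid 2 (adjusted p of 0.0621 to 0.129), with library totals alone (0.0873), without the low-count filter (0.125), with the replicate number as a block (0.0562), with the macrophage score as a covariate (log2 change −0.07, 0.845) and at a threshold of 0.01.

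The SEPT2 group holds Sept1, Sept2, Sept4 and Sept5, whose members meet at the ends or centre of the rod. Sept5, known from platelets and nerve endings, where it binds syntaxins and restrains secretion, had 6.82, 5.12, 4.56 and 5.53 CPM in hydrogel against 7.83, 7.30, 9.68 and 7.24 CPM in liquid. All hydrogel values were lower than all liquid values, with hydrogel 1 and liquid 4 the closest pair across the groups. The log2 change was −0.54 ± 0.16 (adjusted p = 0.0299). It was not called without hydrogel 2 (0.0876), hydrogel 3 (0.0850), hydrogel 4 (0.0685), liquid 1 (0.0578) or liquid 3 (0.0781), nor at a threshold of 0.01, and its log2 change was 0.03 under the macrophage covariate (0.970).

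Since most of the exon sequence of Sept5 is shared, its counts were set against those of Gp1bb. Gp1bb is affected more, with 149 of its 2087 exon bases unshared, so its level, its fall and the ratio are uncertain too. Gp1bb had 30.5, 22.5, 22.6 and 30.1 CPM in hydrogel against 50.3, 38.9, 51.9 and 59.2 CPM in liquid. It fell without overlap, by 0.92 ± 0.15 on the log2 scale (adjusted p = 0.00167; with the macrophage covariate −0.34, 0.540). There were 22.4, 22.8, 20.3 and 18.4 Sept5 counts per 100 Gp1bb counts in hydrogel 1 to 4, against 15.6, 18.8, 18.7 and 12.2 in liquid 1 to 4. The log2 ratio averaged −2.26 ± 0.14 in hydrogel and −2.64 ± 0.29 in liquid (SD, n = 4 each), a difference of 0.38 that did not pass an exact two-sided permutation test (p = 0.0857; the smallest p this design allows is 0.0286).

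Sept2, the founding member and a scaffold of the cleavage furrow, had 2.41, 2.06, 1.68 and 1.71 CPM in hydrogel against 2.92, 3.25, 2.18 and 3.15 CPM in liquid. Liquid 3 lay within the hydrogel range, and the log2 change of −0.54 ± 0.20 was not called (adjusted p = 0.0729), although it was without liquid 3 (−0.66, adjusted p = 0.0413). Sept1 had 9.34, 7.50, 9.31 and 6.37 CPM in hydrogel against 9.15, 11.9, 8.93 and 9.94 CPM in liquid, which overlap (log2 change −0.29 ± 0.16, adjusted p = 0.182).

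Sept4, known from the annulus of sperm and from apoptosis, was almost absent. It had 1, 0, 0 and 1 counts in hydrogel 1 to 4, against 10, 8, 8 and 4 counts in liquid 1 to 4. Its sums of 2 and 30 counts give a ratio, per library total, of 0.0801 of hydrogel over liquid (exact 95% interval 0.00927 to 0.316, counting error only). It had too few counts to be tested with the other genes; in a fit with no low-count filter its adjusted p was 0.0190.

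Divided by exon length, the levels of different septins can be set side by side. The summed family level was 147 ± 7.93 CPM per kb of exon in hydrogel and 126 ± 6.24 in liquid (SD, n = 4 each), with no overlap between groups. When only exon bases not shared with another gene on the same strand were counted as length, the sum was 155 ± 8.70 CPM per kb in hydrogel and 137 ± 7.69 in liquid, and the groups overlapped. By whole exon length, in hydrogel the order was Sept9 (54.3 CPM per kb), Sept11 (44.5), Sept7 (23.1), Sept8 (18.1), Sept1 (2.94), Sept6 (2.39), Sept5 (1.41), Sept10 (0.611), Sept2 (0.246) and Sept4 (0.00419), where Sept9 and Sept11, and Sept1 and Sept6, overlapped over the 4 libraries. In liquid it was Sept11 (43.0 CPM per kb), Sept9 (29.1), Sept7 (26.5), Sept8 (16.2), Sept6 (5.04), Sept1 (3.61), Sept5 (2.05), Sept2 (0.360), Sept10 (0.134) and Sept4 (0.0607), with overlap between Sept9 and Sept7 and between Sept10 and Sept4. By whole exon length Sept9 thus stood first in hydrogel, overlapping with Sept11, and second in liquid, overlapping with Sept7. By coding length, Sept11 was first in hydrogel, with a mean 37.2% of the family level against 26.8% for Sept9. In liquid, Sept9 then had 15.7%, below Sept11 (39.2%) and Sept7 (29.4%). With no division by length, Sept11 had 33.7% and Sept9 32.8% in hydrogel, while in liquid Sept9 had 19.9% and Sept7 27.9%. The place of Sept5 depends on how reads in its shared exons were counted: per kb of unshared exon it had 8.64 ± 1.51 CPM in hydrogel and 12.6 ± 1.79 CPM in liquid (SD, n = 4 each), above Sept1 and Sept6 in both groups. The low place of Sept2 is uncertain for the same reason. Per kb of unshared exon Sept2 had 0.423 ± 0.0738 CPM in hydrogel and 0.619 ± 0.104 CPM in liquid.

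The same 4 genes, Sept7, Sept8, Sept9 and Sept11, held at least 94.7% of the family level in each hydrogel library and 90.3 to 91.8% in the liquid libraries. With unshared exon length they held 89.6 to 90.9% in the hydrogel libraries and 83.5 to 84.2% in the liquid libraries. The share of Sept9 was 36.3, 37.4, 38.9 and 34.5% in hydrogel 1 to 4, against 24.2, 25.1, 24.8 and 18.0% in liquid 1 to 4. The means differed by 13.7 percentage points, and by 11.1 points when coding length was used in place of exon length. Sept6 held 1.63 ± 0.147% in hydrogel and 4.00 ± 0.269% in liquid, and its share of the SEPT6 group alone was 3.65 ± 0.269% in hydrogel and 7.84 ± 0.344% in liquid (SD, n = 4 each).

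Shares sum to 100%, so a rise in the share of Sept9 lowers those of other members. Sept11 held 30.1 ± 0.839% in hydrogel and 34.1 ± 1.68% in liquid, with no overlap, although its CPM overlapped. Sept7 held 15.7 ± 0.698% in hydrogel and 21.0 ± 1.08% in liquid, also without overlap. By group, the SEPT6 group held 44.5 ± 1.72% in hydrogel and 51.1 ± 2.41% in liquid, and the SEPT2 group 3.11 ± 0.276% in hydrogel and 4.83 ± 0.452% in liquid (SD, n = 4 each). The SEPT2 group's share rests on the uncertain Sept2 and Sept5, and with unshared exon length it was 7.73 ± 0.766% in hydrogel and 12.3 ± 0.461% in liquid.

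**Figure D4:**
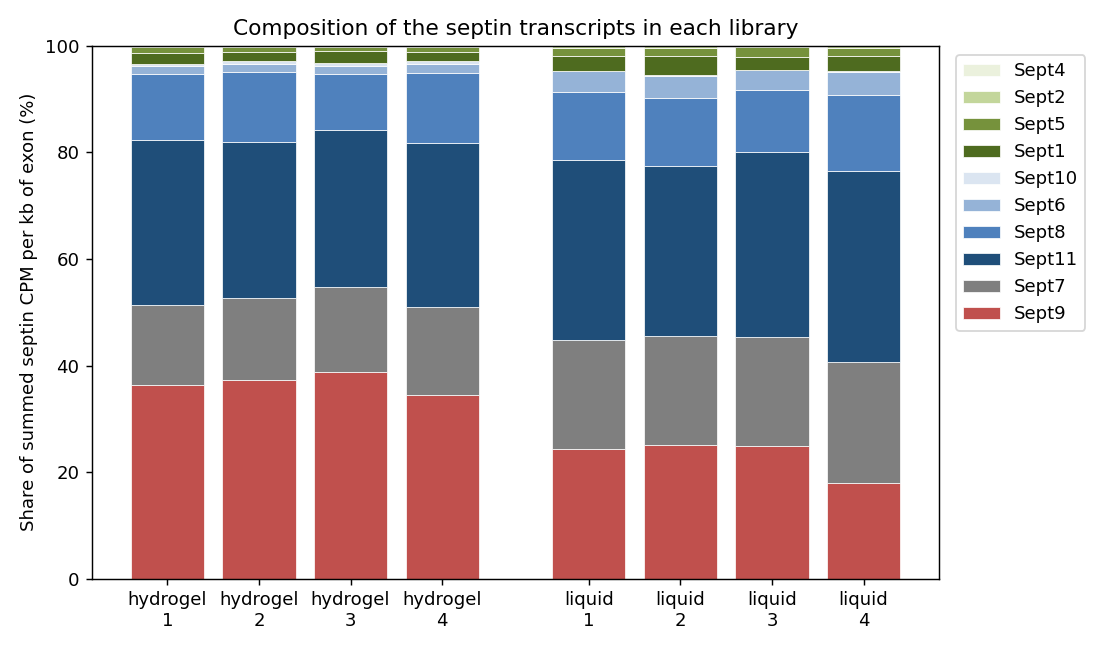
Stacked bars give each septin's share (%) of the summed septin level per kb of exon in each library, the 4 hydrogel libraries on the left and the 4 liquid libraries on the right, coloured by sequence group (red SEPT3, grey SEPT7, blue SEPT6, green SEPT2). The red segment of Sept9 covers 34.5 to 38.9% in hydrogel and 18.0 to 25.1% in liquid.

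Ratios between members within a library do not depend on scaling between libraries. Per kb of exon, the ratio of Sept9 to Sept7 was 2.43, 2.44, 2.45 and 2.08 in hydrogel 1 to 4, against 1.18, 1.23, 1.21 and 0.796 in liquid 1 to 4. Every hydrogel library held more than 2 Sept9 transcripts per Sept7 transcript by this measure, and liquid 4 held fewer than 1. The size of this ratio depends on the length used. By coding length, the mean shares of Sept9 and Sept7 were 26.8 and 23.4% in hydrogel, and 15.7 and 29.4% in liquid. The ratio of Sept6 to Sept11, alternatives for the same place in the rod, was 0.0539 ± 0.00491 in hydrogel and 0.118 ± 0.00822 in liquid (SD, n = 4 each), without overlap. That of Sept6 to Sept7 was 0.104 ± 0.00661 in hydrogel and 0.190 ± 0.00765 in liquid.

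Of 21 known septin partners, 20 were tested, of which 2 rose, 1 fell and 17 were not called; their median log2 change was 0.10. A share of 3 in 20 lies below the 29.3% called among all tested genes (15.1% higher and 14.1% lower). Map4, a microtubule-associated protein that competes with septins for microtubules, had 25.9, 42.1, 49.1 and 45.0 CPM in hydrogel against 18.9, 28.0, 19.1 and 20.1 CPM in liquid. Hydrogel 1 lay below liquid 2 for this gene, and the log2 change was 0.91 ± 0.20 (adjusted p = 0.00723; with the macrophage covariate −0.29, 0.539). Exoc3, a subunit of the exocyst, the vesicle-tethering complex that septins bind in brain, rose by 0.27 ± 0.07 on the log2 scale (adjusted p = 0.0170), a call lost without hydrogel 3 (0.0572) or hydrogel 4 (0.0510) and with the macrophage covariate (0.695). Orai1, the calcium entry channel of the plasma membrane whose activity in cultured cells depends on septins, had 49.9, 48.5, 50.3 and 52.3 CPM in hydrogel against 79.2, 61.1, 82.2 and 70.6 CPM in liquid. Its groups did not overlap and the log2 change was −0.55 ± 0.09 (adjusted p = 0.00204; with the macrophage covariate −0.16, 0.687).

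The partner genes Cdc42, Anln and Myh9 were not called with all libraries included. Cdc42, the GTPase whose effectors bind septins, averaged 659 ± 17.6 CPM in hydrogel and 769 ± 105 CPM in liquid (log2 change −0.22 ± 0.10, adjusted p = 0.132), and it was called without liquid 2 (0.0150). Anln, anillin, which ties septins to actin, averaged 62.2 ± 6.43 CPM in hydrogel and 56.1 ± 6.37 CPM in liquid (0.15 ± 0.10, adjusted p = 0.294). Myh9, non-muscle myosin IIA, on which septins act as a scaffold, averaged 5149 ± 860 CPM in hydrogel and 4722 ± 1147 CPM in liquid (0.12 ± 0.19, adjusted p = 0.661; SD, n = 4 each). Under the macrophage covariate the log2 change of Myh9 was 0.93 (adjusted p = 0.0644).

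The genes whose pattern over the 8 libraries was most like that of Sept10 and of Sept6 were found by Pearson correlation of log2 CPM, a description in which the libraries share their culture groups. For Sept10 they were Adap1 (0.996), Gm2a (0.995), Slfn2 (0.994), Mefv (0.992) and Cd53 (0.991). Mefv encodes the inflammasome sensor pyrin, Cd53 a tetraspanin of leukocytes and Gm2a a cofactor of lysosomal ganglioside breakdown. For Sept6 they were Slc5a3 (0.996), Rab38 (0.995), Serpina3b (0.995), Ryr1 (0.994) and Acat2 (0.989). Slc5a3 encodes a myo-inositol transporter, Rab38 a small GTPase of lysosome-related organelles, Ryr1 a calcium release channel and Acat2 a cytosolic thiolase. Rab38, for example, averaged 88.6 CPM in hydrogel and 140 CPM in liquid, and Cd53 averaged 129 CPM in hydrogel and 37.5 CPM in liquid.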

How the data were processed

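The table holds raw read counts per gene as the authors deposited them, in whole numbers with no normalization. The submitters' processing notes name genome build GRCm39, bcl2fastq, HTSeq 0.13.5 and STAR 2.7.10b. Which annotation release was counted, and how strand and overlapping exons were handled, is not given in the sources used here. Libraries were stranded and polyA-selected, from 150 ng of RNA with 13 PCR cycles, per the labels. No columns were left unused (0); 2 stray lines that name no gene were dropped. Symbols, exon lengths and overlaps came from GENCODE M21, another build; 26534 identifiers had a symbol.

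Genes were filtered with filterByExpr, scaled by TMM and tested across all 13845 kept genes with edgeR 4.0.16 (quasi-likelihood, R 4.3.3), with Benjamini-Hochberg adjustment at 0.05. The SE is the log2 change divided by the square root of F. Shares used CPM per kb of merged exons. The macrophage score is the mean centred log2 CPM (prior count 2) of the 19 monocyte and macrophage markers that passed the filter. The Sept5 to Gp1bb ratio used counts plus 0.5. DESeq2 1.42.0 and limma 3.58.1 served as alternatives, beside other scalings and filters, a replicate block, the covariate and omissions of libraries. The scripts were tested on simulated data. Figures were drawn with matplotlib 3.10.9.

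Members, lists and tests were chosen with earlier results of these data known. Named were all 10 septins, listed partners that passed, Gp1bb, Anln, Cdc42 and Myh9, and the 5 genes most correlated with the called septins of largest rise and fall (without pseudogenes, predicted genes or Rik clones). Sept3 and Rab38 and Cd53 levels, and the unshared-exon and without-Sept2-and-Sept5 alternatives, were added after the values were seen.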

Additional observations from a re-analysis of the deposited data

Results flagged for a closer look

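Of 54 sets of 4 library values examined, 3 held a library far from the other 3 by Dixon's criterion, which chance alone meets in about 1 in 20 sets. In liquid 4, Sept9 made up 18.0% of the septin family level, where the other liquid libraries had 24.2 to 25.1%. In the same library Sept7 made up 22.7%, where the others had 20.4 to 20.6%; the shares of a library sum to 100%, so these 2 values are linked. Without liquid 4 the share of Sept9 averaged 36.8% in hydrogel and 24.7% in liquid, a difference of 12.0 percentage points. Map4 stood at 28.0 CPM in liquid 2, where the other liquid libraries had 18.9 to 20.1 CPM. Liquid 2 also had the highest summed macrophage markers of the liquid libraries, 2422 CPM; their part in the Map4 value was not tested beyond the covariate fit given above.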

How the results depend on the processing

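Sept6 and Sept9 kept direction and call in all 19 alternatives, with log2 changes of −1.13 to −1.01 and 0.78 to 1.05. The Sept9 share difference of 13.7 points ranged from 11.1 (coding length) to 14.5. The number of genes called was 2091 at a threshold of 0.01 (1180 higher, 911 lower), 629 with the macrophage covariate (348, 281), and 2700 (without hydrogel 2) to 4975 (without liquid 2) with a library left out (1476 to 2529 higher, 1224 to 2446 lower); upper-quartile scaling gave 1755 higher and 2492 lower, against 2096 and 1956. Septins higher numbered 1 with the covariate; septins lower numbered 1 at 0.01 and with the covariate, and 1 to 3 in single omissions (1 without hydrogel 2, 3 or 4 or liquid 1). Partners higher numbered 1 at 0.01, 0 with the covariate, 1 to 5 in single omissions (5 without liquid 2) and 6 with hydrogel 1 and liquid 2 both left out. Partners lower numbered 2 with upper-quartile scaling, 2 with the replicate block, 2 with the covariate, 1 to 4 in single omissions (4 without liquid 2) and 5 without both.

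Signs turned with the covariate for Sept5 (0.034), Sept10 (−0.053), Cdc42 (0.021), Anln (−0.41) and Map4 (−0.29); for Sept11 with upper-quartile scaling (−0.0047), without liquid 2 (−0.00074; 0.091 without liquid 3, the other end of its single omissions) and with hydrogel 1 left out as well (−0.031), and for Myh9 without both (−0.055). The share difference of Sept8, −0.58 points, was 0.20 with coding length, and ranged from −0.99 (without liquid 3) to 0.011 (without hydrogel 3) in single omissions. The cause was not tested. Without both, Anln was called (0.00591).

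Culture explains 82.1% of the variance of the macrophage score (variance inflation factor 5.59), so the covariate fit has little power to separate them. Same-numbered libraries deviated together with correlations of 0.220, 0.330, −0.13 and 0.103, and only replicate 2 correlated best with its own number, so the numbers are not taken as pairs; with them as a replicate block 4238 genes were called, and Sept7 was not (0.0562). Depth limits Sept4 and Sept10 most. Intervals cover counting error only.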
